A study of Mus musculus with 2 samples.

Results

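Psca and 9 related genes of the Ly6/uPAR family (Ly6a, Ly6c1, Ly6d, Ly6e, Ly6h, Lypd3, Lypd2, Ly6g6c and Slurp1) were described in the newborn mouse bladder. They were chosen by symbol in the mouse annotation GENCODE M21, and all 10 were found among the 43346 mouse genes of the files. Total RNA above 200 nt was sequenced from the whole bladder of 2 pups of strain B6NCrl, a C57BL/6-derived inbred line, both born to 1 pregnant female and taken at age 0 days. The only group was thus untreated newborn bladder (n = 2 pups, 1 library each from 10 ng of RNA), with no genotype, treatment or age contrasted and sex not collected. The labels describe the samples as separate pups but give both the same donor identifier, so n = 2 and every SD rest on the pup descriptions. Mouse genes held 43653535 expected counts in pup 1 and 32564255 in pup 2, which are reads assigned to genes by the authors' estimator. Levels are given in TPM, a unit that divides reads by transcript length and scales each library to the same total, so that genes can be compared. No p-value was computed, since the design holds 2 replicates of 1 group.

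Proteins of this family carry the LU domain, a small fold held by disulphide bonds. Most are attached to the outer cell surface by a glycosylphosphatidylinositol (GPI) anchor, while Slurp1 is secreted. Psca, prostate stem cell antigen, is known from the upper cell layers of the bladder lining, the urothelium, and Ly6a is the Sca-1 antigen used to sort mouse stem and progenitor cells. Several members, including Ly6a, Ly6c1 and Ly6e, are known to respond to interferon, and others act on nicotinic acetylcholine receptors.

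The sequences decide how far the reads of one member can be told from those of another. Ly6c1 and Ly6c2 are neighbours whose products are both recognised as the Ly6C antigen, and their coding sequences are the closest to each other of the family genes aligned. The first 90 coding bases of each are shown with those of Ly6a, because this stretch holds most of the bases that differ between the coding sequences of Ly6c1 and Ly6c2. They come from the GENCODE M21 transcripts on mm10, minus strand of chromosome 15, joined across an intron, at chr15:75047450-75048511 for Ly6c1, chr15:75110608-75111667 for Ly6c2 and chr15:74996549-74997604 for Ly6a. Capitals mark bases that differ between Ly6c1 and Ly6c2 and, in Ly6a, bases that differ from Ly6c1.
Ly6c1: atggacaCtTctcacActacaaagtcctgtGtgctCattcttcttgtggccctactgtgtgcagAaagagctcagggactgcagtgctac
Ly6c2: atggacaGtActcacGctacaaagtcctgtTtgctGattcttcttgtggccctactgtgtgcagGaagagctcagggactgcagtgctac
Ly6a: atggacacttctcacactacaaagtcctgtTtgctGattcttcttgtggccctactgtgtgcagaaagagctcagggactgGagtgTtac
Within this stretch 6 bases differ between Ly6c1 and Ly6c2 and 4 between Ly6a and Ly6c1, which differ at 64 aligned bases over their whole coding sequences. Over the whole coding sequence of 396 bases, Ly6c1 and Ly6c2 differed at 9 bases, an identity of 97.7%, and shared 1 run of 188 bases without a difference. Ly6a and Ly6c1 were 82.0% identical with gaps counted. By the same measure Ly6a and Ly6c2 were 81.7% identical. Psca had 48.6% identity to Ly6c1, 50.3% to Ly6a and 49.9% to Ly6d. Ly6d and Ly6a were at 47.5% and Ly6e and Ly6c1 at 50.0%. The remaining pairs without Lypd3 ran from 39.2% (Ly6h and Slurp1) to 52.8% (Psca and Lypd2). Pairs with Lypd3, whose coding sequence is longer at 1092 bases, ran from 18.9% (Slurp1) to 27.3% (Ly6e). The start of the Psca coding sequence (plus strand, chr15:74714855-74716058, joined across an intron) is shown beside that of Ly6d (minus strand, chr15:74762812-74763560). These are the 2 members with the highest levels, and the sequences are set side by side. All letters are in lower case because no base is singled out.
Psca: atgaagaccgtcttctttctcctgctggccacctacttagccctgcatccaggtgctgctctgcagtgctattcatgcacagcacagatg
Ly6d: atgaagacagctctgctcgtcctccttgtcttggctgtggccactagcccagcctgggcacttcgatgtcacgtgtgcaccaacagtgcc

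Psca led the members by a wide margin. Psca, on chromosome 15 from 74714839 to 74717069 (mm10), had 1409 TPM in pup 1 and 1477 TPM in pup 2, a mean of 1443 ± 48.2 TPM (SD, n = 2 pups). It ranked 83 of all mouse genes and was close in both pups. Set among the 15 genes fixed as markers of superficial urothelium, it took place 4 of 16 by mean level, place 6 in pup 1 and place 2 in pup 2. By the mean it was below the uroplakins Upk3a at 2040 ± 16.1 TPM and Upk1b at 1533 ± 123 TPM and the keratin Krt18 at 1484 ± 176 TPM, and beside the uroplakin Upk1a at 1442 ± 41.9 TPM (SD, n = 2). Uroplakins form the apical membrane plaques of umbrella cells, so the labelled tissue is matched by its defining markers. The order of Psca and Upk1b, Krt18 and Upk1a differed between the pups, and in each pup Psca was below Upk3a, at 0.687 of its TPM in pup 1 and 0.728 in pup 2.

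Ly6d, a surface antigen known from basal and progenitor cells of several epithelia and from early B-lineage cells, was the next highest. It had 440 TPM in pup 1 and 587 TPM in pup 2, with a mean of 513 ± 104 TPM (SD, n = 2) and rank 285. The pups were well apart for this gene, and its SD was wider than that of Psca although its level was lower. The level of Psca was 3.20 times that of Ly6d in pup 1 and 2.52 times in pup 2. Cd79a, a B-cell receptor subunit, had 0.20 TPM in pup 1 and 0.52 TPM in pup 2, and none of 8 lymphocyte markers reached 1 TPM in both pups.

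Members known from blood vessels, blood cells and the interferon response followed. Ly6a had 248 TPM in pup 1 and 265 TPM in pup 2, with a mean of 256 ± 11.8 TPM. Ly6e, a widely expressed surface protein that serves in mouse placenta as the receptor of syncytin-A, had 112 TPM in pup 1 and 128 TPM in pup 2, with a mean of 120 ± 11.2 TPM. Ly6c1, known from endothelial cells, had 63.7 TPM in pup 1 and 75.2 TPM in pup 2, with a mean of 69.4 ± 8.11 TPM (SD, n = 2 for the 3 genes). Each of the 3 was lower in pup 1, and the ranges of the 3 genes did not overlap. The blood endothelial marker with the highest level, Egfl7, had 43.6 ± 8.40 TPM, and Pecam1 had 25.9 TPM on average. Ly6a exceeded every one of the 12 endothelial markers. The 10 fibroblast markers had a median level of 274 TPM. With whole tissue, the cell types that gave the Ly6a reads were not determined. More cells of a type and more RNA per cell cannot be told apart. The interferon-responsive genes with the highest levels were Ifitm3 at 753 ± 157 TPM, Ifi27 at 89.2 ± 4.46 TPM and Bst2 at 48.8 ± 7.04 TPM.

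The other 5 members lay lower, by 7.40 times in mean TPM from Ly6c1 to the next, Lypd3. Lypd3, also called C4.4A and known from the upper layers of squamous epithelia, is on chromosome 7 and had 7.36 TPM in pup 1 and 11.4 TPM in pup 2, a mean of 9.39 ± 2.86 TPM (SD, n = 2). Ly6h, known from brain as a modulator of nicotinic receptors, had 3.57 TPM in pup 1 and 5.83 TPM in pup 2. For both genes the pups were further apart than for the 5 higher members by the ratio of their TPM. Agr2, a secreted protein reported to bind Lypd3, was at 6.46 ± 0.255 TPM, and Agr3 had 2 counts in pup 1 and 1 count in pup 2.

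Slurp1, Lypd2 and Ly6g6c rested on few reads. Slurp1, the secreted keratinocyte protein mutated in the human skin disorder Mal de Meleda, had 19 counts and 0.85 TPM in pup 1 and 33.06 counts and 2.58 TPM in pup 2. Lypd2 had 12 counts in each pup, which gave 0.97 TPM in pup 1 and 1.31 TPM in pup 2. Ly6g6c, on chromosome 17 in the major histocompatibility region, had 10 counts in each pup, which gave 0.39 TPM in pup 1 and 0.51 TPM in pup 2. Exact Poisson intervals (95%, counting error only) ran from 0.187 to 0.717 TPM in pup 1 and from 0.245 to 0.938 TPM in pup 2 for Ly6g6c, below 1 TPM in both, and from 0.501 to 1.69 TPM in pup 1 and from 0.677 to 2.29 TPM in pup 2 for Lypd2, on both sides of 1 TPM.

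**Figure D1:**
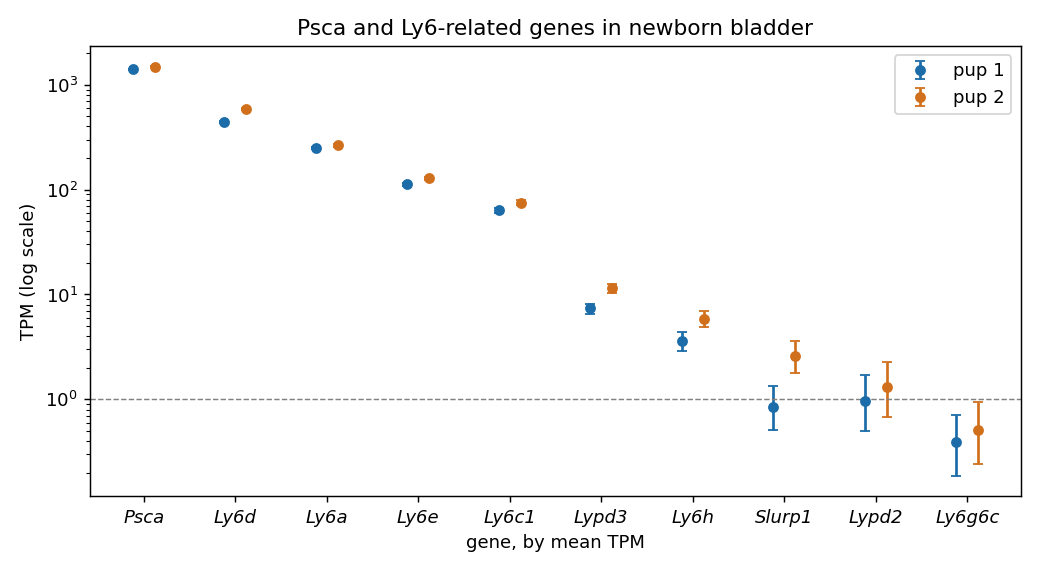
TPM of the 10 members (log axis, genes ordered by mean) in pup 1 and pup 2, with exact Poisson 95% intervals of the counts as bars and 1 TPM as a dashed line. The points fall from 1409 and 1477 TPM for Psca to 0.39 and 0.51 TPM for Ly6g6c, and pup 1 is the lower in every gene.

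At a level of 1 TPM or more in both pups, 7 of 10 members were expressed, against 31.9% of all mouse genes and 58.5% of protein-coding genes. In the order Psca, Ly6d, Ly6a, Ly6e, Ly6c1, Lypd3, Ly6h, Slurp1, Lypd2, Ly6g6c, all neighbouring pairs but Slurp1 and Lypd2 had ranges of the 2 pups that did not overlap. The authors also deposited credibility intervals, which surround the posterior mean TPM and not the TPM given here. For Psca they ran from 1367 to 1397 in pup 1 and from 1425 to 1460 in pup 2, below its TPM in both. By these intervals, compared within a pup, only Slurp1 with Lypd2 and Lypd2 with Ly6g6c overlapped, in both pups. When the interval of one pup was also set against that of the other, Lypd3 with Ly6h and Ly6h with Slurp1 overlapped too. The smallest step among the higher members was between Ly6e and Ly6c1, at 1.73 times by mean TPM, and the largest between Ly6c1 and Lypd3, at 7.40 times. The 10 members made up 0.229% (pup 1) and 0.255% (pup 2) of the summed level of all genes. Psca alone supplied 61.6% of the members' sum in pup 1 and 57.8% in pup 2, and the 5 highest supplied 99.4% in pup 1 and 99.2% in pup 2.

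Of the members, 8 lie in the Ly6 cluster of chromosome 15, and their level did not follow their order along it. The cluster runs 885 kb from Psca to Gpihbp1 and holds 25 annotated protein-coding genes. Of these, 11 reached 1 TPM in both pups, against 58.5% of all protein-coding genes, and 5 had 0 counts in both. Psca stands at one end, and the nearest member to it is Slurp1, whose level was far lower. Lypd2 and Slurp2 follow; Slurp2, another secreted family protein, had 1 count in pup 1 and 0 counts in pup 2. Ly6d, 47.2 kb from Psca, has Lynx1 at 5.88 TPM and Ly6k at 4.51 TPM on average as the nearest family genes to its sides. Ly6a and Ly6c1 are flanked by Ly6i at 0.19 and 0.24 TPM and by Ly6c2 at 0.48 and 1.03 TPM in pup 1 and pup 2.

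**Figure D2:**
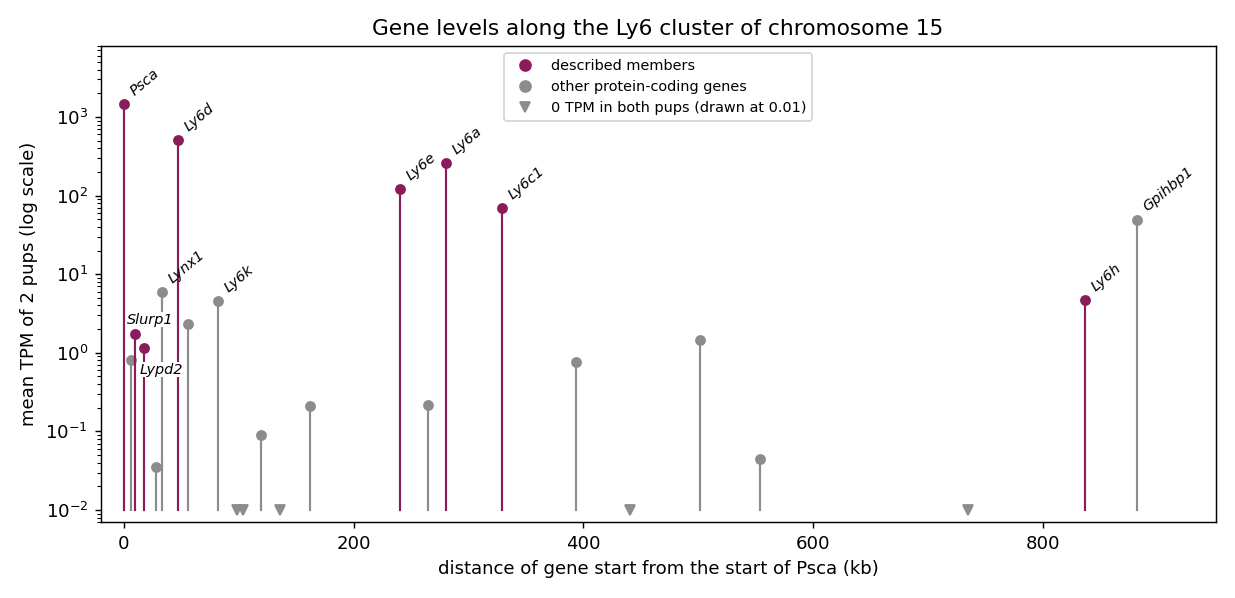
Mean TPM of 2 pups (log axis) of the 25 protein-coding genes from Psca to Gpihbp1 against the distance of the gene start from the start of Psca in kb. Psca, Ly6d, Ly6a, Ly6e and Ly6c1 stand at 69.4 to 1443 TPM between genes at 0 to 5.88 TPM, and Gpihbp1 at 48.8 TPM is the highest of the others.

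Most of each member's transcript sequence was found in no other gene. Psca, Ly6d, Ly6e, Ly6h, Lypd2 and Ly6g6c shared no stretch of 100 nt of their M21 transcripts with another gene on either strand. Ly6c1 shared 10.1% of its stretches with other genes, namely 159 with Ly6c2 and 19 with Ly6a. Ly6a shared 1.45%, Lypd3 1.94% with the antisense RNA Gm26550, and Slurp1 7.67% with the antisense strand of Them6, which it overlaps by 322 bases. The deposited posterior SD of the count, which grows where reads are divided among copies, was 0 in both pups for 6 of 10 members. It reached 1.80 reads of 1386 in pup 1 and 2.07 reads of 1309 in pup 2 for Ly6c1, and was under 1% of the count in all 10, as it was in 91.4% of mouse genes averaging 100 counts or more.

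The division between Ly6c1 and Ly6c2 was lopsided. Ly6c1 had 1386 counts in pup 1 and 1309 in pup 2, and Ly6c2, known from inflammatory monocytes, had 10.7 counts in pup 1 and 18.7 in pup 2. By TPM, Ly6c1 was 133 times as high as Ly6c2 in pup 1 and 73.0 times in pup 2. The posterior SD of Ly6c2 was 1.80 reads in pup 1 and 2.01 reads in pup 2, up to 15.6% of its posterior mean count. The 12 monocyte and macrophage markers were all lower in pup 1, among them Lyz2 (lysozyme) at 216 TPM in pup 1 and 1106 TPM in pup 2. The part of such cells in the levels of Ly6c1 and Ly6c2 was not tested.

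All 10 members were lower in pup 1 than in pup 2. Expected counts were scaled by TMM factors and set as a log2 ratio, pup 1 over pup 2, which was below 0 for every member. Lypd2 and Ly6g6c had equal counts in both pups, so their direction came from the scaling alone. Of the 8 members that averaged 20 counts or more, all 8 were lower in pup 1, against 47.3% of all genes at that depth. Their exact binomial 95% intervals, which cover counting error only, lay below 0 in all 8, against 21.3% of all genes. Intervals excluded equal levels in either direction in 47.3%. Such intervals narrow as counts rise, and no background matched in depth to the higher members was computed. The share of genes at that depth with a lower log2 ratio than the member ran from 2.06% for Slurp1 to 26.1% for Psca. The median over these 8 members was -0.41, beside 0.01 over all genes at that depth. None of the 7 members averaging 100 counts or more was 2-fold apart, against 1.98% of all such genes. The 10 genes share both libraries and are not independent of one another, and animal and library cannot be told apart with 1 library per pup.

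The size of the difference varied among members. Psca and Ly6a had the smallest log2 ratios, -0.15 (interval -0.17 to -0.13) and -0.17 (-0.23 to -0.12), followed by Ly6e at -0.28 and Ly6c1 at -0.32. By the ratio of TPM, whose median over all genes was 0.09, Psca had -0.07 and Ly6a -0.09, both outside those intervals. Ly6d had -0.50 (-0.54 to -0.45), and its interval did not touch those of the other 4 high members. Lypd3 had -0.72 (-0.93 to -0.50) and Ly6h -0.74 (-1.14 to -0.35). Slurp1 had -1.20 (-2.10 to -0.34), the only member past 2-fold, on a mean count below 100. The intervals of Lypd2 and Ly6g6c, both at -0.40, included 0.

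Marker lists are given beside the members as medians of the same log2 ratio over their genes that averaged 20 counts or more. Superficial urothelium had a median of 0.08, with 5 of 15 genes lower in pup 1, and Upk3a, Upk1a, Upk1b and Krt18 had -0.06, -0.02, 0.08 and 0.16. Basal urothelium had -0.20, with 10 of 10 genes lower in pup 1, from Krt15 at -0.03, Krt5 at -0.14 and Krt14 at -0.17 to the hyaluronan receptor Cd44 at -1.01. Squamous epithelium had 0.03, with 5 of 11 genes lower in pup 1 and 6 higher. Sprr1a had -0.02, Krtdap 0.14 (0.02 to 0.26), Ivl 0.03, Krt4 0.31 (0.25 to 0.36) and the stress keratin Krt6a -1.34. Blood endothelium had -0.08, with 7 of 12 genes lower in pup 1 and 5 higher. Its markers with the highest levels were Egfl7 at -0.49, Cldn5 at -0.45, Esam at -0.34 and Eng at -0.16, while Tek had 0.24 (0.09 to 0.39) and Vwf 0.10 (0.01 to 0.20). The interferon-responsive list had -0.38 and was mixed, with 7 of 11 genes lower in pup 1 and 4 higher. Ifitm3 had -0.51, Isg15 -1.07 and Rsad2 -1.12, while Ifit1 had 0.57 (interval 0.24 to 0.91), Ifit3 0.53 (0.19 to 0.89) and Ifi27 0.09. The monocyte and macrophage list had -1.14, with 12 of 12 genes lower in pup 1 and a summed level of 612 TPM in pup 1 and 1963 TPM in pup 2. Its genes at least 2-fold apart were Lyz2, Tyrobp, Ptprc, Fcer1g, Csf1r, C1qc and C1qa, and none of the 12 was at 0. The neutrophil list had -2.86, with 5 of 6 genes lower in pup 1 and Mpo at 0.55 (-0.40 to 1.55). Only 2 of its genes averaged 100 counts or more. Its summed level was 37.7 TPM in pup 1 and 381 TPM in pup 2, mostly from S100a8 and S100a9. Neurons had -0.16, and fibroblasts had 0.14, with Col1a1 at 0.22. The part of these cell types and of the interferon response in the differences of the members was not tested.

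**Figure D3:**
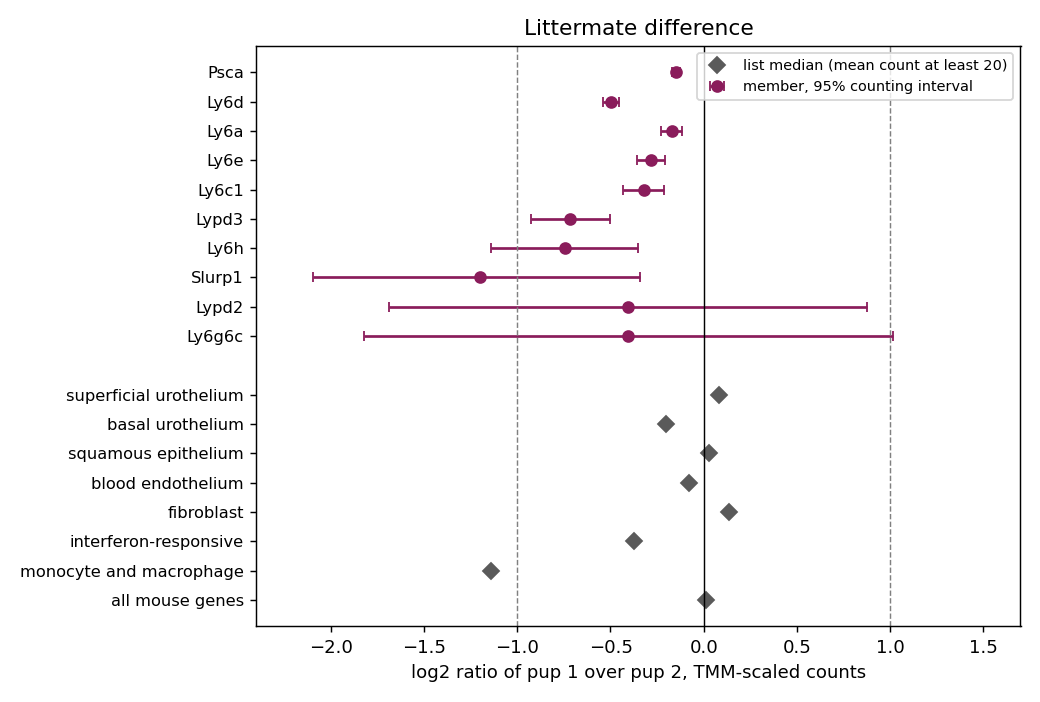
Log2 ratio of pup 1 over pup 2 from TMM-scaled counts for the 10 members with exact binomial 95% intervals (circles), and medians of marker lists and of all mouse genes averaging 20 counts or more (diamonds). Members lie between -1.20 and -0.15, left of 0, and dashed lines mark 2-fold.

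Transcript use was single for some members and split for others. Psca, Ly6d and Lypd3 have 1 transcript each in the files. Ly6e has 16, of which Ly6e-215 held 77.9% of the gene's level in pup 1 and 79.5% in pup 2, while the shorter Ly6e-213 held 17.8% in pup 1 and 14.5% in pup 2. Ly6a-201 held 79.8% in pup 1 and 83.5% in pup 2, and Ly6a-204 held 11.8% in pup 1 and 10.8% in pup 2. These shares differed little between littermates. The SD of the count of the leading transcript was at most 1.98% of it for Ly6a and 0.895% for Ly6e.

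Transcript division was less certain in the other genes. Ly6c1-201 held 71.3% in pup 1 and 77.8% in pup 2 and Ly6c1-202, of similar length, 23.0% in pup 1 and 16.4% in pup 2, with a posterior SD of 105 reads on 324 for Ly6c1-202 in pup 1. Ly6h, with 98 counts in pup 1 and 124 in pup 2, had its leading transcript Ly6h-201 at 38.8% in pup 1 and 61.5% in pup 2 and Ly6h-204 at 31.4% in pup 1 and 17.2% in pup 2, and the SD of Ly6h-201 was 34.2% of its count in pup 1 and 22.1% in pup 2. Slurp1-202, a transcript of 2859 nt against 567 nt for Slurp1-201, received 8.47 of the 19 reads in pup 1 and 5.06 of 33.06 in pup 2. This set the effective length of Slurp1 at 743 nt in pup 1 and 536 nt in pup 2, so that pup 2 was 3.04 times as high as pup 1 by TPM but 2.30 times by scaled counts. Them6, which overlaps Slurp1 on the other strand, had 0.89 TPM in pup 1 and 0.74 TPM in pup 2; with strand use not given, reads in the overlap cannot be told apart. The same holds for a small part of Lypd3 beside Gm26550 (19.5 counts in pup 1 and 13.1 in pup 2). Their gene spans overlap by 1367 bases, while 30 of the 1550 stretches of 100 nt in Lypd3 transcripts were shared. The gene span of Ly6g6c overlaps that of Mpig6b by 797 bases (18 counts in pup 1 and 45 in pup 2). No stretch of 100 nt in the transcripts of Ly6g6c was shared with Mpig6b.

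**Figure D4:**
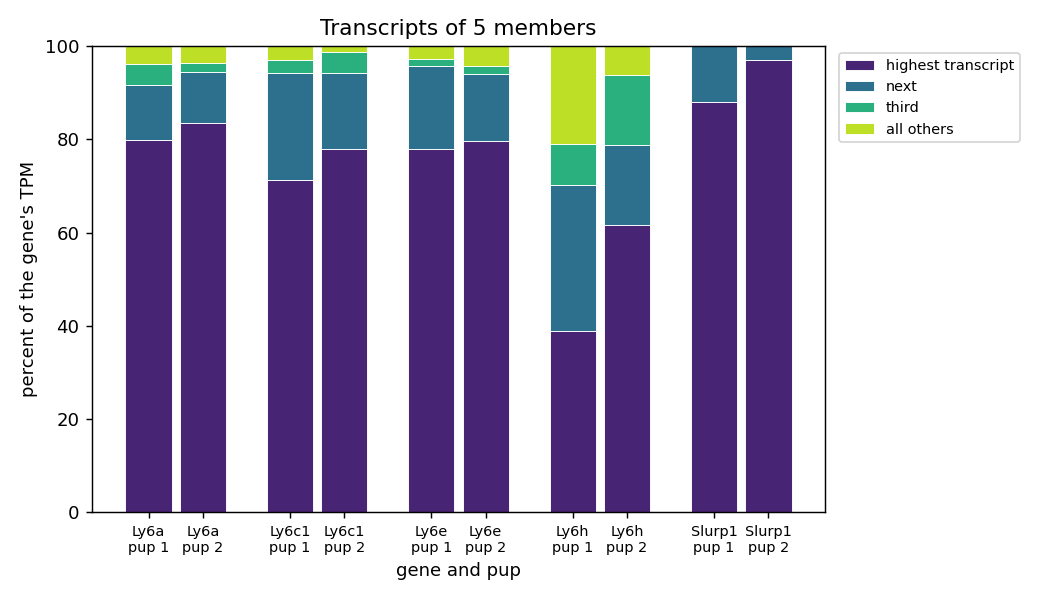
Percent of a gene's TPM held by each of its highest transcripts and by all others, as stacked bars for pup 1 and pup 2 of 5 members. The highest transcript of Ly6a takes 79.8% in pup 1 and 83.5% in pup 2, while the highest transcript of Ly6h takes 38.8% in pup 1 and 61.5% in pup 2.

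Most other family genes were low or without reads. Of 43 further genes listed for the family, 40 were found in the files. Of these, 10 reached 1 TPM in both pups, against 31.9% of all mouse genes and 58.5% of protein-coding genes. A further 14 had 0 counts in both pups, as had 19116 of all 43346 mouse genes. Cd59a, which protects cells from complement, had 90.6 TPM in pup 1 and 67.0 TPM in pup 2, and was higher in pup 1 with a log2 ratio of 0.35 (0.28 to 0.42). Gpihbp1, the endothelial protein that carries lipoprotein lipase, had 48.3 TPM in pup 1 and 49.4 TPM in pup 2. Plaur, the urokinase receptor, had 29.9 TPM in pup 1 and 49.6 TPM in pup 2, a log2 ratio of -0.81 (-0.92 to -0.70). The 7 others, Ly6g6e, Lynx1, Ly6k, Cd59b, Lypd1, Ly6g6d and Lypd6, lay between 1.41 and 7.27 TPM in single pups. Of the summed level of members and further family genes, Psca supplied 56.7% in pup 1 and 53.7% in pup 2.

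The genes that build the GPI anchor were all expressed. Each of the 30 listed genes reached 1 TPM in both pups, and their median level was 22.0 TPM. Those at the top were Pigp at 121 ± 0.488 TPM and Pigyl at 76.2 ± 1.11 TPM, subunits of the enzyme that starts the anchor, and Dpm1 at 103 ± 13.0 TPM and Dpm3 at 102 ± 11.3 TPM, subunits of dolichol-phosphate mannose synthase (SD, n = 2). The median log2 ratio of the list was -0.02. Of 6 genes listed as enzymes that may release anchored proteins, 5 reached 1 TPM in both pups. Gde1 had 80.9 ± 2.45 TPM, and the next, Gdpd5, had 6.07 ± 0.764 TPM. Whether each listed enzyme, Gde1 among them, acts on the anchor was not examined.

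Nicotinic receptor subunits, on which Slurp1, Lynx1 and Ly6h are known to act, were low. Of 16 subunit genes, only Chrnb1 reached 1 TPM in both pups, with 6.04 TPM in pup 1 and 5.17 TPM in pup 2. Chrna7, the subunit on which human SLURP1 is known to act, had 8 counts in pup 1 and 2 counts in pup 2. Of the further genes listed as possible ligands or partners, Lgals1 had 1913 ± 157 TPM, Sdc4 184 ± 13.2 TPM and Mfsd2a 3.63 ± 0.841 TPM (SD, n = 2). Whether their products bind any member was not examined.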

How the data were processed

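The authors deposited 1 gene and 1 transcript table per library in the RSEM layout, on mm10 with GENCODE M4 per the labels' file listing. No source used here states the aligner, the RSEM version or the strand setting. Expected counts, as deposited, estimate the reads of each gene, with multi-mapped reads divided. The deposited TPM is scaled over all entries, the deposited FPKM is per kilobase and depth, the deposited percent is a transcript's share of its gene, and the deposited posterior SD of the count is a score in reads. Effective lengths were 99 nt below transcript length, which raises the TPM of short genes.

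Of 43346 mouse genes, 42462 were matched by identifier to GENCODE M21 symbols; older list symbols were matched through RefSeq GRCm38.p6 synonyms. Expected counts were rounded and scaled with TMM (edgeR 4.0.16, R 4.3.3); a count of 0 was set to 3 counts. Intervals are exact binomial (Clopper-Pearson) at 95% for ratios and exact Poisson for levels, and cover counting error only, since PCR copies are not told apart. Expressed means at least 1 TPM in both pups. DESeq2 1.42.0 size factors, library size, TPM ratios and posterior means were alternatives. The ratio step was tested on simulated counts. Stretches of 100 nt were compared over all M21 transcripts. Python 3.11.15 with pandas 2.3.3, numpy 2.4.6 and scipy 1.17.1 was used.

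Named genes are the members, family genes at 1 TPM in both pups, up to 4 genes per list by level and list genes 2-fold apart. Pecam1, Tek, Vwf, Ifit1, Ifit3, Mpig6b, Ly6c2, Ly6i, Slurp2, Them6, Gm26550, Agr3, Chrna7, Ly6g, Cd177 and Gpr39 were named after their values were seen. The members and lists were chosen with earlier results of these data known. No likeness of pattern to other genes was computed, as 2 libraries give none.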

Additional observations from a re-analysis of the deposited data

How the results depend on the processing

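With 2 libraries of 1 group there is no test between groups, and levels under about 100 counts are limited by depth. No paired analysis was possible because both samples belong to 1 group. The count of expressed members, 7, was 9 at 0.5 TPM and 7 at 2 TPM. It was 8 by posterior mean TPM, 9 in pup 2 alone and 7 in pup 1 alone. A lower cut or 1 pup alone could only keep or raise this count, and it could not pass 10. These settings thus say little on its stability. The 10 further family genes became 12 at 0.5 TPM, 8 at 2 TPM and 11 in either pup alone. The posterior mean setting for family genes (11) was chosen after seeing the data. All 10 members were lower in pup 1 by TMM and also by DESeq2 size factors, library size, posterior mean counts, TPM ratio and log2(TPM + 1). For Lypd2 and Ly6g6c, with equal counts in both pups, this follows from the scaling. By TPM, 34.2% of all genes at 1 TPM in both pups were lower in pup 1. Psca had a mean of 1025 by FPKM against 1443 TPM, a change of unit. The median log2 ratio over members, -0.41, was -0.32 for members averaging 100 counts or more, which leaves out Slurp1, and -0.33 by the ratio of TPM. The count of members 2-fold apart, 0 among those averaging 100 counts, was 1 at 20 and 1 with no filter, Slurp1 in both. For single members, 80 of 95 alternative values stayed within the pups' SD or the counting interval, and none changed direction. This count includes settings whose outcome was fixed. The level of either pup alone always lies within the SD of 2 pups. TPM rescaled to mouse genes could hardly move, since these hold 99.997% of the TPM. DESeq2 size factors and library size shift the log2 ratio of every member by the same constant, and posterior mean counts nearly so. For Psca they gave -0.149, -0.167 and -0.146, against -0.149 by TMM. The same direction in these settings is thus not separate evidence. By the ratio of TPM the log2 ratios of Psca, Ly6a, Ly6d and Ly6e were -0.07, -0.09, -0.42 and -0.19.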

Other observations

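Ly6g, the surface antigen by which mouse neutrophils are sorted, had 0 counts in both pups, which allows up to 0.186 TPM in pup 1 and 0.232 TPM in pup 2 (3 counts). The neutrophil gene S100a8 had 24.6 TPM in pup 1 and 263 TPM in pup 2, and S100a9 had 8.90 TPM in pup 1 and 106 TPM in pup 2. Mpo, on the same list, had 1.54 TPM in pup 1 and 1.02 TPM in pup 2, on 29 and 15 counts. Cd177, another family gene known from neutrophils, had 2 counts in pup 1 and 45 counts in pup 2. Both Ly6g and Cd177 were chosen after their values were seen, and the cells that gave these reads were not determined.

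Both Cd59 genes were measured, and Cd59b was at 3.20 TPM in pup 1 and 3.22 TPM in pup 2, far below Cd59a. Lypd1 had the largest posterior SD of the expressed family genes relative to its count, at 22.3 reads of 186 in pup 1 and 17.1 reads of 116 in pup 2, and 16.0% of its 100 nt stretches lay on the strand opposite Gpr39.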
